A study of Mus musculus with 19 samples.

Results

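Cystic embryoid bodies (EBs) grown from 2 embryonic stem (ES) cell clones, A9 and JN, were compared by RNA-seq on the autosomes. The comparison used 4 libraries, 1 from each clone at day 10 (d10) and 1 at day 15 (d15) of differentiation. They belong to 11 RNA-seq libraries in a series of 19 samples. Both clones had the genetic background C57Bl/6x129. Clone A9 (XY) came from Anton Wutz and clone JN (XX) from Jennifer Nichols, and according to the study's methods both showed a normal karyotype. The ES cells were kept on irradiated mouse embryonic fibroblast feeders with LIF, aggregated in AggreWell plates and then cultured floating without LIF. Each clone was 1 ES cell line, so a difference between the clones is a difference between these lines and their cultures. The study combined all 4 libraries as replicates of cystic EBs, and it concluded that cystic EBs contain embryonic rather than yolk sac endoderm.

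The clones also differed in how their libraries were made. After depletion of ribosomal RNA, both A9 libraries were prepared with ScriptSeq and both JN libraries with a dUTP strand-marking protocol, so clone, sex of the line and protocol cannot be told apart in A9 minus JN. A further pair of groups was used to gauge the protocols. Liver of E12.5 FVB embryos was prepared with ScriptSeq (2 libraries) and visceral yolk sac (VYS) mesoderm of E9.25 FVB embryos with dUTP (2 libraries), each from pooled litters, with the mesoderm collected together with vessels and basement membrane. Liver minus mesoderm shares no library with A9 minus JN, but it mixes the protocol with tissue and stage. It is no gauge for genes that differ between these tissues or that are near 0 in both. The yolk sac endoderm of E9.25 (ysE, 2 dUTP libraries, FVB) served to estimate the spread and as a reference for the JN autosomes and for some endoderm genes. Genes on X and Y are not reported.

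A cystic EB is an aggregate of differentiating ES cells that forms a fluid-filled cavity with an outer layer resembling extraembryonic endoderm. Visceral endoderm makes lipoproteins and other serum proteins for the embryo. Parietal endoderm lays down a thick basement membrane of laminin, type IV collagen and nidogen. Nodal is a secreted ligand of the TGF-beta family that signals through activin receptors and the co-receptor encoded by Tdgf1, and Lefty1 and Lefty2 are its secreted antagonists and also its transcriptional targets. The pathway is active in pluripotent cells, in early visceral endoderm and in the primitive streak. In bulk RNA from mixed cultures, fewer cells of a type and less RNA per cell cannot be told apart.

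The A9 libraries held 52105966 (d10) and 47818368 (d15) transcript counts, and the JN libraries 96882725 and 110465060. The liver and mesoderm libraries held 59203340 to 119296265. The transcribed ribosomal RNA repeat Rn45s took 2.94% and 7.35% of the A9 counts at d10 and d15 and 1.99% and 1.92% of the JN counts. Values below are CPM, that is counts brought to a common library size, with TMM factors that even out differences in RNA composition, and 4 values in a row are always A9 d10, A9 d15, JN d10 and JN d15. The endoderm markers Lama1 and Afp were present in all 4 libraries, at 336.8 CPM or more and 55.1 CPM or more. Neither is particular to extraembryonic endoderm, and Afp stood at 3853 and 6640 CPM in the liver libraries. The libraries were more alike within a clone than between clones at the same day. Pearson's r of log2 CPM across transcripts was 0.969 between the A9 days and 0.977 between the JN days, against 0.936 and 0.928 between the clones at d10 and d15.

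The test was the quasi-likelihood F-test of edgeR, its p-values adjusted by Benjamini and Hochberg's method over every transcript tested, and a transcript or gene was called at a false discovery rate of 5%. The 2 libraries of a clone are 2 days of culture, and the spread was estimated together with the library pairs of liver, mesoderm and ysE. The p-values thus measure only the spread within these pairs, of which the tissue pairs are a part. An exact permutation test over 2 libraries against 2 cannot go below p = 0.33. Of 23155 autosomal transcripts tested, 2425 were called higher in A9 (10.5%) and 3185 lower (13.8%). With 1 transcript for each gene, 1806 of 17391 autosomal genes were higher (10.4%) and 2420 lower (13.9%). In liver minus mesoderm 4234 genes were higher (24.3%) and 5229 lower (30.1%). Of the genes higher in A9, 985 (54.5%) were also higher in liver and 221 were lower there. Of the genes lower in A9, 1686 (69.7%) were also lower in liver and 151 were higher there. Over 11353 autosomal genes with a mean of at least 1 RPKM (reads scaled by transcript length and library size), the 2 sets of log2 differences had a Pearson's r of 0.42 and a Spearman's rho of 0.44. This is across genes, which are not independent replicates, and the 2 contrasts share the direction of protocol.

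A further contrast, A9 minus JN less liver minus mesoderm, tested whether the clone difference departed from that gauge. In it 3013 genes were higher (17.3%) and 2434 lower (14.0%), and a gene can pass it through liver and mesoderm alone. Of the 1806 genes higher in A9, 528 also passed this test upwards, and of the 2420 lower genes 592 passed it downwards. Below, a gene is said to depart from the gauge where it passed this test in the direction of its clone difference and was not called between liver and mesoderm. This is stated for some genes only, so its absence for another gene is no result.

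Genes of the Nodal and Lefty pathway were mostly not called, with Lefty1 the clearest exception. Lefty1 (NM_010094, chromosome 1, 180935022 to 180938401, mm10) stood at 1.70, 1.98, 34.5 and 14.8 CPM. Both A9 libraries lay below both JN libraries, and the log2 difference was −3.74 (SE 0.48, adjusted p = 0.000749). Lefty1 was between 0.51 and 1.23 CPM in all liver and mesoderm libraries. By the definition above it departed from the gauge (adjusted p = 0.00135), at these low levels in both tissues. Its call held in all 17 settings run, the reported fit included, with a highest adjusted p of 0.00772. Its neighbouring paralog Lefty2, the antagonist made in mesoderm, stood at 11.4, 17.5, 16.4 and 5.13 CPM, so that its clones overlapped (log2 difference 0.42, SE 0.55, adjusted p = 0.619). Lefty1 and Lefty2 are similar in sequence, and how reads matching both were counted is not given in the sources used here.

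Among ligands, Nodal itself stood at 4.88, 2.84, 14.8 and 12.7 CPM, with no overlap between the clones but no call (log2 difference −1.83, SE 0.80, adjusted p = 0.13), except when the 4 EB libraries were fitted alone (adjusted p = 0.0269). Gdf3, a Nodal-related ligand of pluripotent cells, was lower in A9 at 1.22, 1.66, 9.04 and 5.63 CPM (log2 difference −2.35, SE 0.75, adjusted p = 0.0473). Gdf1, which forms heterodimers with Nodal, was lower by a log2 difference of −2.08 (SE 0.53, adjusted p = 0.0202) and stayed below 4 CPM in all 4 libraries. Among receptors, the type II receptor gene Acvr2b was lower at 10.6, 7.39, 20 and 16 CPM (log2 difference −1.0, adjusted p = 0.0233). It was lower in liver than in mesoderm as well (log2 difference −1.19), whereas Gdf3 was higher there (3.95) and Gdf1 was not called (−1.32). The type I receptor gene Acvr1b was the single member called higher, at 33.8, 31.7, 19.4 and 17.4 CPM (log2 difference 0.83, SE 0.17, adjusted p = 0.00784), and it departed from the gauge. The co-receptor gene Tdgf1 had a log2 difference of −0.30 (adjusted p = 0.569) with overlapping clones. With the 4 EB libraries fitted alone, Gdf1, Acvr2b and Acvr1b were not called. The call of Gdf3 ended on leaving out any 1 of the 4 EB libraries (adjusted p from 0.0674 to 0.193) and with a block for day (adjusted p = 0.0504), and those of Gdf1 and Acvr2b ended without A9 d15 or without JN d10. In all, 1 of 18 members was higher (5.56%, against 10.4% of all autosomal genes) and 4 were lower (22.2%, against 13.9%), with a list median of −0.30 against −0.01 over all autosomal genes. The count of lower members dropped to 1 without A9 d15 and to 1 without JN d10.

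Basement membrane and parietal endoderm genes were the list with the most members called higher, and A9 d15 carried the highest values. Lama1 (NM_008480, chromosome 17, 67697127 to 67822645, mm10), which encodes the laminin alpha-1 chain of early basement membranes, stood at 348.7, 1564, 387.5 and 336.8 CPM. A9 d10 lay between the JN libraries, so the clones overlapped, and Lama1 was not called (log2 difference 1.40, SE 0.52, adjusted p = 0.0783). Without A9 d15 the log2 difference was −0.06 (adjusted p = 0.884), and without A9 d10 it was called (adjusted p = 0.000237), as it was by DESeq2 and with no filter on low counts. The higher mean of Lama1 in A9 thus rested on A9 d15.

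The other laminin chains of the same trimer varied alike. Lamc1, the gamma-1 chain, stood at 444.5, 2064, 268.8 and 234.2 CPM and was higher in A9 with no overlap (log2 difference 2.32, SE 0.54, adjusted p = 0.0144). It departed from the gauge. Lamb1, the beta-1 chain, stood at 570, 2289, 485 and 644 CPM and was not called (log2 difference 1.34, adjusted p = 0.0802), except by DESeq2, with no filter on low counts and without A9 d10 (adjusted p = 0.00081). By contrast Lama5, the alpha chain that replaces Lama1 in many later basement membranes, was lower in A9 at 44.8, 40.2, 179.8 and 130.3 CPM (log2 difference −1.87, SE 0.23, adjusted p = 0.00050). Per length, Lama1 was at a mean of 93.3 RPKM in A9 and 37.5 in JN, and Lama5 at 3.54 and 13.4. Lama5 was also lower in liver than in mesoderm (log2 difference −3.84). Hspg2, encoding the heparan sulfate proteoglycan perlecan, was likewise lower in A9 at 34.8, 51.2, 157 and 90.4 CPM (log2 difference −1.52, SE 0.33, adjusted p = 0.0101), and it too was lower in liver. Lama5 kept its call on leaving out any EB library, whereas Lamc1 lost it without JN d10 or JN d15 (adjusted p = 0.0665 and 0.068) and Hspg2 without A9 d10 or JN d10 (adjusted p = 0.0516 and 0.0636).

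Of the collagen and matrix genes, Col4a2 was higher at 645, 2627, 431 and 593 CPM (log2 difference 1.68, adjusted p = 0.0389). Its head-to-head partner Col4a1, at 826, 4996, 922 and 1379 CPM, had overlapping clones and no call (log2 difference 1.34, adjusted p = 0.145), except by DESeq2 and without A9 d10 (adjusted p = 0.000767). Sparc, a matrix glycoprotein abundant in parietal endoderm, stood at 757, 3408, 366 and 620 CPM (log2 difference 2.08, SE 0.56, adjusted p = 0.0259). Each of these genes was several-fold higher in A9 d15 than in A9 d10, whereas the JN days differed less. Nid1, encoding nidogen, was higher as well (log2 difference 1.81, adjusted p = 0.0299). Ctsl, a lysosomal protease strongly expressed in extraembryonic endoderm, was higher on both days at 1907, 3013, 633 and 960 CPM (log2 difference 1.63, SE 0.31, adjusted p = 0.00579), and it kept its call on leaving out any EB library. Without A9 d15 the log2 differences of Col4a2, Sparc and Nid1 fell to 0.32, 0.61 and 0.43 and none was called (adjusted p = 0.424, 0.222 and 0.26), and none was called without JN d10 either. These 3 genes and Ctsl were lower in liver than in mesoderm (log2 differences from −2.45 to −1.26).

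The 4 transcription factors of extraembryonic endoderm described here were higher in A9 with no overlap, although Gata4 alone kept its call on leaving out any EB library. Snai1, another factor on the parietal endoderm list, had overlapping clones and was not called (log2 difference 0.24, adjusted p = 0.794). Gata4 stood at 50.1, 68.0, 25 and 28.3 CPM (log2 difference 1.15, SE 0.22, adjusted p = 0.00575). Gata6 stood at 37.3, 46.3, 18.3 and 26.6 CPM (log2 difference 0.90, adjusted p = 0.0224). Sox17 stood at 25.8, 42.2, 17.7 and 17.4 CPM (log2 difference 0.95, adjusted p = 0.0381). Sox7, a relative of Sox17 that marks parietal endoderm, stood at 5.09, 20.1, 4.15 and 2.47 CPM (log2 difference 1.93, adjusted p = 0.0338). The log2 difference of Sox7 fell to 0.62 without A9 d15 (adjusted p = 0.383), and its call was lost in 8 of 17 settings, a block for day among them (adjusted p = 0.0671). That of Sox17 fell to 0.54 without A9 d15 (adjusted p = 0.279), and Gata6 was not called without A9 d15 or without JN d10 (adjusted p = 0.134 and 0.126). These are genes of primitive endoderm derivatives, although Gata4 and Gata6 also act in heart and gut and Sox7 and Sox17 in endothelium. Gata6, Sox7 and Sox17 were lower in liver than in mesoderm (log2 differences −1.14, −2.06 and −3.36), and Gata4 was higher there (0.90), so liver minus mesoderm is no gauge for them.

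Of 24 members of the parietal endoderm and basement membrane list, 13 were higher (54.2%) and 2 lower (8.33%). Of all autosomal genes 10.4% were higher and 13.9% lower. With the 4 EB libraries fitted alone 4 members were higher. The list median was 1.23, with 0.50 at d10 and 1.45 at d15. In liver minus mesoderm the list median was −2.15. The mesoderm was collected with vessels and basement membrane, so liver minus mesoderm is no gauge for this list. The count of higher members was 20 without A9 d10, 5 without A9 d15, 3 without JN d10 and 6 without JN d15. Fibroblast and feeder genes, which also make matrix, had a list median of 0.88 in A9 minus JN with 0 of 14 called by edgeR in either direction, 1 higher and 1 lower at an unadjusted p under 0.05, and 0 higher and 1 lower by DESeq2. With a block for day 3 of them were called higher, as were 3 without JN d15. The interstitial collagen gene Col3a1 stood at 271, 664, 38.5 and 363 CPM (log2 difference 1.22, adjusted p = 0.298), and it was called with the block (adjusted p = 0.0153) and without JN d15 (adjusted p = 0.00492). The part of feeder or stromal cells in the matrix genes was not tested.

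**Figure D1:**
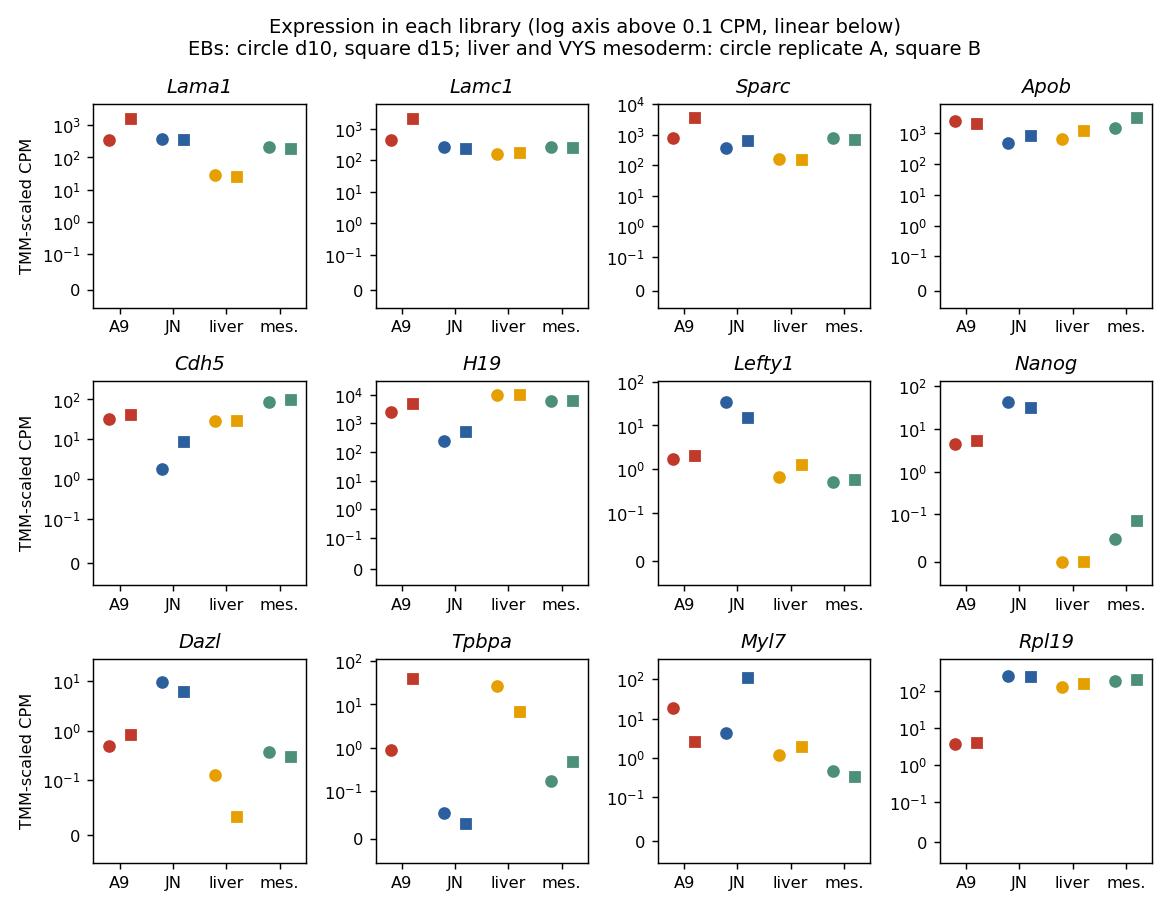
TMM-scaled CPM (vertical axis, logarithmic above 0.1 and linear below) of 12 genes in the 2 libraries each of A9, JN, liver and VYS mesoderm. Circles are d10 or the first tissue replicate and squares d15 or the second. Lefty1 and Nanog separate the clones, from 1.70 and 1.98 CPM of Lefty1 in A9 to 34.5 and 14.8 in JN, whereas Lama1 is high in A9 d15 alone.

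Of 25 genes for products of visceral endoderm and hepatocytes, 8 were called higher in A9, among them 4 apolipoprotein genes. Apob, the structural apolipoprotein of secreted lipoprotein particles, stood at 2488, 1977, 490 and 846 CPM (log2 difference 1.74, SE 0.42, adjusted p = 0.017). Apoe stood at 1317, 1268, 415 and 568 CPM (log2 difference 1.40, SE 0.28, adjusted p = 0.0069). For both genes each A9 library lay above each JN library on either day. Apoc2, the activator of lipoprotein lipase, stood at 61.8, 42.8, 4.82 and 16.2 CPM (log2 difference 2.32, adjusted p = 0.0153). Apoa4 stood at 34.4, 74.3, 8.0 and 12.8 CPM (log2 difference 2.38, SE 0.62, adjusted p = 0.0227). Hnf4a, the transcription factor that drives many of these genes in visceral endoderm and liver, was higher by a log2 difference of 1.13 (SE 0.34, adjusted p = 0.0385). In liver minus mesoderm Apoe was higher too (log2 difference 1.22), and its difference of both contrasts was 0.17 (adjusted p = 0.76). Apob and Apoa4 were lower there (−1.33 and −3.92). Hnf4a (0.81) and Apoc2 (−0.87) were not called there. Apoc2 departed from the gauge by the definition above, although it stood at 33.7 and 69.2 CPM in mesoderm and at 620 and 701 CPM in ysE. Apoe kept its call on leaving out any EB library. Apob lost it without A9 d10 or JN d10 (adjusted p = 0.0504 and 0.101), Apoc2 without JN d10 (adjusted p = 0.053), Apoa4 without A9 d15, JN d10 or JN d15, and Hnf4a without A9 d10, A9 d15 or JN d10.

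Called members of the same list went both ways. Cubn, the endocytic receptor cubilin, was higher at 441, 241, 115 and 118 CPM (log2 difference 1.55, adjusted p = 0.0104), and Vil1, the microvillar actin-bundling protein villin, at 78.3, 70.4, 18.8 and 28.5 CPM (log2 difference 1.65, adjusted p = 0.00594). Amn encodes the membrane partner that carries cubilin to the cell surface, and it was lower at 5.51, 3.35, 9.34 and 20.4 CPM (log2 difference −1.74, adjusted p = 0.0146). Lrp2, the endocytic receptor megalin that works with cubilin, was not called (log2 difference 0.51, adjusted p = 0.311). Spink3, a secreted protease inhibitor, was lower at 93.2, 47.9, 202 and 238 CPM (log2 difference −1.64, adjusted p = 0.00752). Cubn, Vil1, Amn and Spink3 were all lower in liver than in mesoderm, with log2 differences of −7.17, −3.73, −8.21 and −6.74. The sign of liver minus mesoderm was thus the same for those that rose and those that fell. All were far higher in ysE than in mesoderm, Cubn standing at 765 and 1325 CPM in mesoderm and at 5413 and 6790 CPM in ysE. The part of endoderm in the mesoderm samples was not tested, and liver minus mesoderm is no gauge for such genes. Vil1 and Spink3 kept their calls on leaving out any EB library, Cubn lost its call without JN d10 (adjusted p = 0.0571), and Amn without A9 d15 or JN d15 (adjusted p = 0.0898 and 0.0772).

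The classical secreted markers Afp and Ttr were not called. Afp, encoding alpha-fetoprotein, stood at 55.1, 1564, 76.9 and 432 CPM, higher at d15 than at d10 in either clone, with overlapping clones (log2 difference 1.67, SE 1.18, adjusted p = 0.335), and its direction turned on leaving out an A9 library, being called higher without A9 d10 (log2 difference 2.62, adjusted p = 0.0418) and at −2.23 without A9 d15 (adjusted p = 0.143). Ttr, encoding transthyretin, stood at 245, 428, 55.0 and 190 CPM, with each A9 library above each JN library (log2 difference 1.46, adjusted p = 0.111), and it was called without JN d15 (adjusted p = 0.0239), with a block for day (adjusted p = 0.0267) and by DESeq2. In all, 8 of 25 members were higher (32.0%, against 10.4% of all autosomal genes) and 2 lower (8.0%, against 13.9%). On both days 18 members were higher in A9, and the list median was 1.31. It was 0.30 in liver minus mesoderm, which is no gauge for genes of liver and yolk sac endoderm. The count of higher members was 6 without A9 d15, 3 without JN d10, 12 without A9 d10 and 13 with a block for day. Of definitive endoderm genes, which share regulators with extraembryonic endoderm, only Sox17 was called, and the list median was −0.01 over 17 members. Without A9 d10 and without JN d15 1 of them was called lower.

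Of 24 pluripotency genes 6 were called, all lower in A9, and the others were not called, with lower or higher means in A9. On both days 15 members were lower in A9 and 3 higher. All 6 were also called lower in liver than in mesoderm, and 0 were called lower in the difference of both contrasts. Nanog, a core factor of the pluripotent state, stood at 4.44, 5.33, 44.1 and 31.6 CPM (log2 difference −2.95, SE 0.45, adjusted p = 0.00256). Dppa5a, a gene of undifferentiated ES cells, stood at 9.68, 14.4, 121 and 86.8 CPM (log2 difference −3.11, SE 0.27, adjusted p = 0.000138). Dppa3, which is made in naive ES cells and in germ cells, stood at 0.875, 0.514, 9.32 and 5.18 CPM (log2 difference −3.38, SE 0.61, adjusted p = 0.00588). For each of these the JN libraries lay above the A9 libraries on both days, and the transcripts were at 0 in liver and at 0.215 CPM or less in mesoderm, so liver minus mesoderm is no gauge for them. Trim28, a ubiquitously made corepressor, was lower at 145, 95.8, 675 and 405 CPM (log2 difference −2.16, SE 0.28, adjusted p = 0.000721), and it was also lower in liver than in mesoderm (log2 difference −1.09). Dppa2 and Klf2 completed the called members, with log2 differences of −1.95 and −1.60, and neither was called without A9 d10 or without JN d10, nor Klf2 without A9 d15. Nanog, Dppa5a, Dppa3 and Trim28 kept their calls on leaving out any EB library. The neural and pluripotency factor Sox2 stood at 63.2, 66.6, 112 and 76.3 CPM and was not called (log2 difference −0.54, adjusted p = 0.719). The core factor Pou5f1 stood at 74.1, 95.2, 109 and 51.8 CPM with overlapping clones (log2 difference 0.07, adjusted p = 0.902). L1td1, Klf4, Tbx3 and Tfcp2l1 had positive log2 differences of 1.30, 1.28, 0.80 and 0.41 and were not called (adjusted p from 0.0907 to 0.2). Utf1, Dppa4 and Zfp42 had negative log2 differences of −2.29, −1.40 and −1.25 with no overlap between the clones, and were not called either (adjusted p from 0.0597 to 0.0682). In all, 6 of 24 pluripotency genes were lower (25%, against 13.9% of all autosomal genes) and 0 higher by edgeR (1 higher at an unadjusted p under 0.05, 1 by DESeq2, and 1 without A9 d10 or without A9 d15), and the list median of −0.72 was −1.30 at d10 and −0.23 at d15.

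Of 11 germ cell genes, 5 were lower in A9 (45.5%) and 0 higher by edgeR, at an unadjusted p under 0.05 or by DESeq2 (1 higher without JN d15), with a list median of −1.43. Of all autosomal genes 13.9% were lower and 10.4% higher. Dazl, an RNA-binding protein of germ cells, stood at 0.486, 0.819, 9.5 and 6.08 CPM (log2 difference −3.58, SE 0.53, adjusted p = 0.00169). Sycp3, a component of the meiotic chromosome axis, stood at 4.10, 8.38, 22.6 and 13.9 CPM (log2 difference −1.55, adjusted p = 0.0277). Piwil2, a PIWI protein that guards germ cells against transposons, stood at 1.69, 2.74, 8.35 and 5.37 CPM (log2 difference −1.63, adjusted p = 0.0327). Dazl and Sycp3 were lower in liver than in mesoderm as well, and Piwil2 was not (log2 difference 0.09). Of the 5 called germ cell genes 4 were called lower in liver too, and 0 were called lower in the difference of both contrasts. Mael was called at levels below 4 CPM (log2 difference −2.84, adjusted p = 0.0482), and Dppa3 stood on both lists. Dazl kept its call on leaving out any EB library, whereas Sycp3, Piwil2 and Mael were not called without A9 d10 or without JN d10, nor Piwil2 without A9 d15 or Mael without JN d15. The count of lower germ cell genes was 2 without A9 d10 and 2 without JN d10. The maintenance methylation cofactor gene Uhrf1, often high in cycling cells, was the single call among 8 DNA methylation genes, at 73.1, 43.3, 202 and 129 CPM (log2 difference −1.51, SE 0.28, adjusted p = 0.00557), and it departed from the gauge (adjusted p = 0.00868). With a block for day 1 of the 8 was higher and 2 were lower, by DESeq2 1 was higher and 1 lower, and without JN d15 2 were lower.

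Endothelial genes were higher in A9 where they were called. Cdh5, the adhesion molecule VE-cadherin, stood at 32.3, 40.8, 1.79 and 8.37 CPM (log2 difference 2.84, SE 0.55, adjusted p = 0.00639). Flt1, a VEGF receptor that is also made in trophoblast, stood at 82.9, 117, 43.0 and 41.9 CPM (log2 difference 1.24, SE 0.22, adjusted p = 0.00453). Erg and Tek were higher by log2 differences of 2.9 (adjusted p = 0.0137) and 1.60 (adjusted p = 0.0112). Cdh5, Tek and Flt1 were lower in liver than in mesoderm (log2 differences −1.66, −1.99 and −1.70), so liver minus mesoderm is no gauge for them. Cdh5, Flt1 and Tek kept their calls on leaving out any EB library, and Erg was not called without A9 d10 or JN d10 (adjusted p = 0.0779 and 0.0782). The list of 15 had 4 higher (26.7%) and 0 lower members (0 lower also at an unadjusted p under 0.05 and by DESeq2). Of all autosomal genes 10.4% were higher and 13.9% lower. The list median was 2.05 at d10 and −0.50 at d15, with 5 members higher on both days. The count of higher members was 3 without A9 d10 and 6 without A9 d15, and the day difference was not tested.

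Other mesodermal lists gave few calls. Of 24 cardiac genes 2 were called higher (8.33%, below the 10.4% of all autosomal genes), the transcription factors Hand1 at 13.4, 15.5, 2.09 and 5.97 CPM (log2 difference 1.84, adjusted p = 0.0191) and Hand2 at 27.7, 12.3, 2.55 and 6.92 CPM (log2 difference 2.08, adjusted p = 0.0162). Both are also made in extraembryonic mesoderm, and Hand1 in trophoblast. Neither was called without JN d10 (adjusted p = 0.0595 and 0.0696), nor Hand1 without A9 d15 or Hand2 without A9 d10. The cardiac list had 1 higher gene without A9 d10, 5 without JN d15, and 0 higher and 2 lower without JN d10. The contractile gene Myl7, an atrial myosin light chain, stood at 18.2, 2.59, 4.24 and 110 CPM and was not called (log2 difference −2.46, SE 1.25, adjusted p = 0.184), except without JN d10, where it was lower (adjusted p = 0.0397), and its direction turned without JN d15 (log2 difference 1.29, adjusted p = 0.451). Its order was thus opposite on the 2 days, with A9 above JN at d10 and below at d15, and the cardiac list median likewise was 1.57 at d10 and −1.44 at d15. The smooth muscle gene Tagln was lower at 10.9, 12.7, 48.4 and 66.9 CPM (log2 difference −2.29, SE 0.24, adjusted p = 0.000219), and it was lower in liver too (log2 difference −4.19), while Mylk was higher by 1.16 (adjusted p = 0.00801). Skeletal alpha-actin, Acta1, was lower at 1.23, 1.33, 8.89 and 6.05 CPM (log2 difference −2.54, SE 0.35, adjusted p = 0.00111), and Mylpf had a log2 difference of −0.97 (adjusted p = 0.0495) with a call that changed in 12 of 17 settings, among them another scaling, no filter on low counts and all 11 libraries.

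Adult alpha-globin RNA was low in all EB libraries. The adult alpha-globin genes Hba-a1 and Hba-a2, whose counts were identical, stood at 0.373, 0.019, 1.95 and 3.43 CPM, against 641 to 1253 CPM in liver and mesoderm. They were the only erythroid genes called of 15 (log2 difference −3.70, SE 0.67, adjusted p = 0.00461), although 6 were lower without A9 d10. The 2 globin calls were 13.3% of the erythroid list, against 13.9% of all autosomal genes called lower. Both were lost with the 4 EB libraries fitted alone. Of 16 macrophage genes and 18 neural genes 0 were called by edgeR, with list medians of 0.53 and −0.45. In each of these lists 1 gene was lower at an unadjusted p under 0.05, and DESeq2 called 0. Of the macrophage genes 2 were called higher with a block for day and 4 without JN d15, which also gave 1 neural gene higher. Among 13 primitive streak genes 1 was lower (7.69%, below the 13.9% of all autosomal genes), the Wnt target Sp5. It was below 5 CPM in all 4 libraries (log2 difference −3.23, SE 0.84, adjusted p = 0.0225), and not called without A9 d15 or JN d15. The streak factor T stood at 11.8, 2.76, 24.1 and 10.8 CPM and was not called (adjusted p = 0.233), except without A9 d10 (adjusted p = 0.0418). The list had 2 lower genes without A9 d10 and 0 without A9 d15 or JN d15. Of 9 neural crest genes Snai2 (log2 difference 1.79) and Ets1 (0.92) were higher and Erbb3 (−0.81) was lower, and all 3 had the opposite sign in liver minus mesoderm. These are 22.2% higher and 11.1% lower, against 10.4% and 13.9% of all autosomal genes. Snai2 kept its call on leaving out any EB library, Ets1 kept it only without A9 d15 and Erbb3 only without JN d10.

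**Figure D2:**
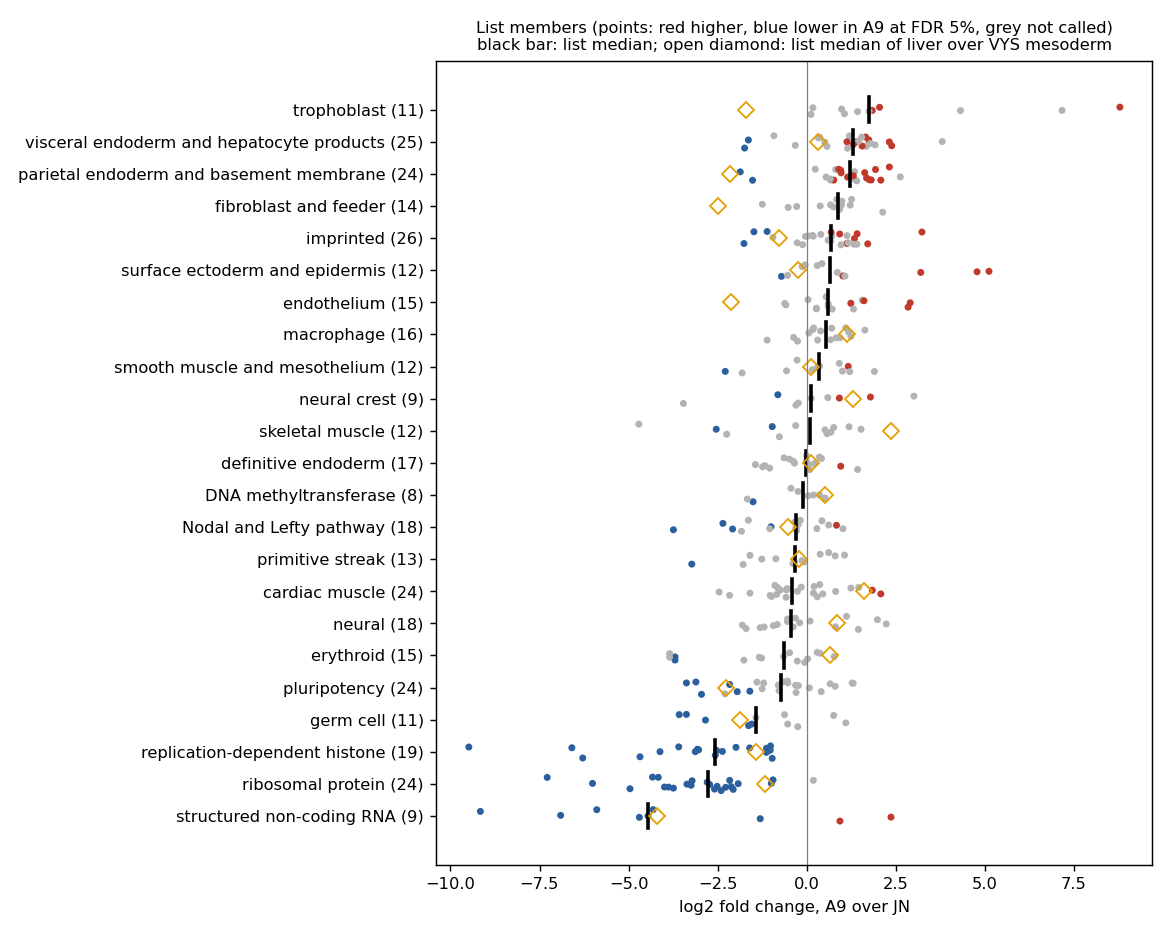
Log2 differences A9 minus JN (horizontal axis) for the members of each gene list, with points red where called higher, blue where called lower and grey otherwise, a black bar at the list median and an open diamond at the median of liver minus mesoderm. The parietal endoderm and basement membrane list has 13 of 24 members called higher, and the histone, ribosomal protein and structured RNA lists lie far below 0.

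The 10 autosomal genes with the largest increase in A9 included 8 made in the placenta, and the values of all 8 were far higher in A9 d15 than in the other EB libraries. Prl4a1, Prl2a1 and Prl3b1 belong to the placental prolactin family on chromosome 13. Tpbpa is the marker of spongiotrophoblast, the layer between labyrinth and giant cells. Ctsq and Ctsr are placental cathepsins next to Tpbpa, and Psg29 and Ceacam15 are placental members of a glycoprotein family on chromosome 7. Tpbpa stood at 0.891, 38, 0.0548 and 0.0315 CPM (log2 difference 8.79, SE 1.78, adjusted p = 0.00755), so that A9 lay above JN on both days (log2 differences 3.57 at d10 and 9.47 at d15). Prl4a1 stood at 0.0162, 9.75, 0 and 0 CPM, that is 513 counts in A9 against 0 in JN, which makes it at least 354-fold higher in A9 with a floor of 3 counts over the JN libraries. Psg29 stood at 0.405, 34.8, 0.0274 and 0.063 CPM (log2 difference 8.53, SE 2.28, adjusted p = 0.025). Over the 8 genes A9 d15 ranged from 7.31 to 38 CPM and A9 d10 from 0.0162 to 0.891 CPM. With a block for day Ceacam15 was not called (adjusted p = 0.051). Without A9 d15 only Tpbpa of the 8 was still called (log2 difference 4.34, adjusted p = 0.0169), and none was called without JN d10 (adjusted p = 0.0531 for Tpbpa). Placental transcripts were also present in the tissue libraries, where Tpbpa was at 26.4 and 6.53 CPM in the liver libraries and Psg29 at 37.6 and 1.52 CPM in the mesoderm libraries.

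Other trophoblast and epithelial genes went both ways, and some rested on A9 d15. Krt7, a keratin of trophoblast and simple epithelia, was higher on both days at 43.1, 120, 17.4 and 22.1 CPM (log2 difference 2.04, SE 0.45, adjusted p = 0.0111), and not called without A9 d15 or JN d10 (adjusted p = 0.0629 and 0.0728). Prl3d1, a hormone of trophoblast giant cells, stood at 0.0648, 12.3, 0 and 0.0788 CPM and was not called (adjusted p = 0.0869), although its call changed in 5 of 16 settings, among them DESeq2, no filter on low counts and leaving out A9 d10 (adjusted p = 0.0338). Of 11 trophoblast genes 3 were higher (27.3%) and 0 lower by edgeR, at an unadjusted p under 0.05 or by DESeq2, with a list median of 1.75, and the count was 1 without A9 d15, 0 without JN d10, and 5 without A9 d10 and by DESeq2. Of all autosomal genes 10.4% were higher and 13.9% lower. The epidermal keratin gene Krt14 stood at 1.14, 7.27, 0.137 and 0.165 CPM (log2 difference 4.78, SE 0.93, adjusted p = 0.00647), and it was still called without A9 d15 (log2 difference 2.88). Krt5 and Krt15 were called with overlapping clones, A9 d15 alone being high, and were not called without it (log2 differences 0.15 and 0.14). Both calls were also lost with a block for day (adjusted p = 0.227 and 0.199) and without JN d10 or JN d15. The desmosomal gene Dsp was higher on both days at 280, 217, 118 and 129 CPM (log2 difference 1.01, SE 0.17, adjusted p = 0.00315). The simple keratin gene Krt8 was lower at 276, 405, 562 and 553 CPM (log2 difference −0.71, adjusted p = 0.0335), while its partner Krt18 was not called (log2 difference 0.29, adjusted p = 0.382). Krt8 was called without A9 d15 but not without any other of the EB libraries, and Dsp kept its call without each of them.

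Imprinted genes, which are expressed from 1 parental allele, moved in both directions. H19, a non-coding RNA abundant in endoderm and mesoderm, stood at 2432, 4604, 244.5 and 503.7 CPM (log2 difference 3.23, SE 0.40, adjusted p = 0.000581) and departed from the gauge. Peg10, a retrotransposon-derived gene needed in placenta, stood at 821, 925, 242 and 291 CPM (log2 difference 1.71, SE 0.20, adjusted p = 0.000428) and was lower in liver than in mesoderm (log2 difference −1.09). The growth inhibitor Cdkn1c, at 231, 314, 70.0 and 134 CPM (log2 difference 1.41, adjusted p = 0.0072), was also higher in liver than in mesoderm. Igf2r, the clearance receptor for IGF2, was higher at 1371, 739, 333 and 634 CPM (log2 difference 1.13, adjusted p = 0.0387). The 2 non-coding RNAs Rian and Mirg of the Meg3 cluster on chromosome 12 were lower, Rian at 66.0, 80.0, 243 and 252 CPM (log2 difference −1.76, SE 0.18, adjusted p = 0.00017), whereas Meg3 of the same cluster was higher (log2 difference 0.68, adjusted p = 0.0473). With a block for day Meg3 was not called (adjusted p = 0.0503). Rian, Mirg and Meg3 went the same way in liver minus mesoderm. H19, Peg10, Cdkn1c and Rian kept their calls on leaving out any EB library, Igf2r was not called without A9 d10 or JN d10 (adjusted p = 0.219 and 0.184), and Meg3 not without A9 d15 or JN d15 (adjusted p = 0.294 and 0.207). In all, 7 of 26 imprinted genes were higher (26.9%) and 3 lower (11.5%, below the 13.9% of all autosomal genes), with a list median of 0.68. The count of higher genes was 4 without A9 d10, and 11 without JN d15, with a block for day and by DESeq2.

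The largest decreases were in ribosomal protein, histone and small RNA genes. Of 24 ribosomal protein genes 23 were lower in A9 (95.8%), with a list median of −2.76. Rpl19 stood at 3.69, 3.98, 253 and 243 CPM (log2 difference −6.01, SE 0.19), against 128 and 156 CPM in liver and 195 and 206 in mesoderm. The exception was Rpl4, at 1737, 1847, 1700 and 1455 CPM, which was not called (log2 difference 0.18, adjusted p = 0.498). Of the 23 genes 20 were also lower in liver, and 17 fell further in A9 minus JN than in liver minus mesoderm. Ribosomal protein genes have many processed pseudogenes, and how multiply matching reads were counted is not given in the sources used here.

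All 19 replication-dependent histone genes tested were lower in A9, with a list median of −2.57, and 13 of them were also lower in liver. These genes make messages without a poly(A) tail. Hist1h3b stood at 0.34, 0.0762, 164 and 147 CPM (log2 difference −9.48, SE 0.53). Of 9 structured non-coding RNAs 7 were lower and 2 were higher, and all 9 went the same way in liver minus mesoderm. Rmrp, the RNA of RNase MRP, stood at 895, 892, 18238 and 20982 CPM (log2 difference −4.46, SE 0.28), and the nuclear RNAs Malat1 and Neat1 were the 2 higher ones (log2 differences 0.93 and 2.36), Malat1 not being called without JN d15 (adjusted p = 0.0618).

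Of the 10 autosomal genes with the largest decreases, 10 were also lower in liver, against 5 of the 10 largest increases. They included the histone genes Hist1h2br, Hist1h2bq, Hist1h2ad, Hist1h4m and Hist1h3b, the ribosomal protein gene Rpl36, the small RNAs Scarna2 and Snord72, and the pseudogene Oaz1-ps. Hist1h2br and Hist1h2bq had identical counts, 0 in A9 against 1091 in JN, and were at least 175.7-fold lower in A9 (floor of 3 counts over the A9 libraries). The study also deposited counts on exon parts, in which Rpl36 was lower in A9 as well, by a log2 difference of −7.86. There Oaz1-ps and Scarna2 had the opposite sign, at 2.11 and 1.12. The direction of these last 2 genes thus held in 1 counting scheme of 2, and the exon-part counts were not tested.

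Among the 10 largest increases, the other two genes were no placental genes. AF357425, a small RNA gene on chromosome 12, stood at 7.05, 23.2, 0.165 and 0.102 CPM (log2 difference 6.82, SE 0.65, adjusted p = 0.000113) and was not called between liver and mesoderm. Gm12060 on chromosome 11 stood at 5.54, 9.52, 0.0822 and 0.0867 CPM (log2 difference 6.45, SE 0.61), and was also higher in liver (log2 difference 2.45). Some further large differences were not shared with liver minus mesoderm, and they are named here after their values were seen. Lars2, the mitochondrial leucyl-tRNA synthetase, stood at 1539, 3985, 37.7 and 50.9 CPM (log2 difference 5.96, SE 0.67, adjusted p = 0.000322), and was lower in liver than in mesoderm. Of the libraries fitted, Lars2 was highest in A9 d15 and lowest in liver, as was the share of Rn45s (7.35% in A9 d15, 0.50% and 0.48% in liver). A part of ribosomal RNA reads in the Lars2 counts was not tested. Rnu11, an RNA of the minor spliceosome, stood at 352, 425, 9.28 and 13.3 CPM (log2 difference 5.10, SE 0.35, adjusted p = 1.27e-05), and was between 10.9 and 18.3 CPM in all liver and mesoderm libraries. Rpl35 stood at 1.41, 1.62, 280 and 241 CPM (log2 difference −7.43, SE 0.27) and did not differ by a called amount between liver and mesoderm (log2 difference −0.09, adjusted p = 0.712). Rex2, a zinc-finger gene, stood at 0.0162, 0.0571, 5.44 and 4.14 CPM (log2 difference −7.02, SE 1.10, adjusted p = 0.00225).

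Relative transcript length moved with both contrasts. When the 11353 genes were split into 6 groups of equal number by relative length, the shortest group had a median log2 difference of −0.33 in A9 minus JN and −0.88 in liver minus mesoderm. The longest group had medians of 0.07 and 0.17. Between these the medians of A9 minus JN lay from −0.07 to −0.00. Relative length was the summed counts of the EB libraries divided by their summed RPKM. The JN libraries were deeper, so a gene higher in JN was scored as longer than a gene of equal length higher in A9. The grouping thus depends on A9 minus JN itself, and its dependence on length cannot be set against that of liver minus mesoderm.

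**Figure D3:**
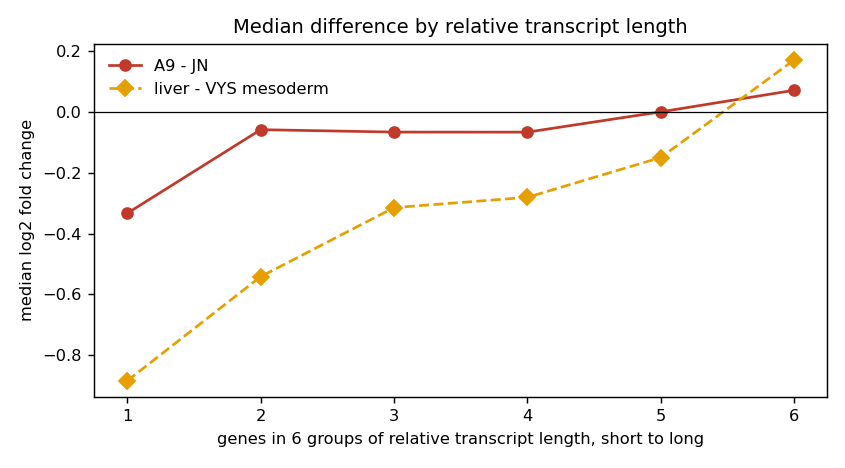
Median log2 difference (vertical axis) of autosomal genes with a mean of at least 1 RPKM in 6 groups of increasing relative transcript length (horizontal axis), for A9 minus JN and for liver minus mesoderm. Both are lowest in the shortest group, at −0.33 and −0.88, and above 0 in the longest. Relative length itself depends on the clone difference.

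Whole autosomes were then compared by the median log2 difference of their transcripts, set against the median over all autosomal transcripts. Transcripts of an autosome are not replicates, so these medians carry no test, and their spread is that of the 2 days. Chromosome 1 stood highest, by 0.44 (0.40 at d10 and 0.45 at d15), over 1401 transcripts. This corresponds to a ratio of 1.36. On the mean of the days chromosome 14 was next, by 0.20 (0.14 at d10 and 0.27 at d15, 833 transcripts), although chromosome 18 was above it at d10 (0.17). Chromosome 17 was lowest, by −0.23 (−0.26 at d10 and −0.22 at d15, 1211 transcripts). The other 16 autosomes lay from −0.17 to 0.14. The SD of the 2 days was 0.000254 to 0.099 over the 19 autosomes, with a median of 0.032, and 18 of 19 had the same sign on both days.

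Liver minus mesoderm gave autosomal medians from −0.15 to 0.20, and on these means over libraries chromosome 1 was the highest there too, although single library pairs of other autosomes reached 0.21. Its median in liver minus mesoderm was 0.20 on the means over libraries, and 0.12 to 0.17 in the 4 single library pairs, which have medians of their own. With liver minus mesoderm subtracted for each transcript before the median was taken, chromosome 1 stood at 0.30. For chromosome 14 the liver minus mesoderm median was 0.06, with −0.12 to 0.06 over the pairs, so that its sign was not the same in all of them. Its difference of both was 0.17, below that of chromosome 8 (0.18). For chromosome 17 the median was −0.02, with −0.087 to 0.018 over the pairs, and the difference of both was −0.20. Over the 19 autosomes, 12 had the same sign in A9 minus JN and in liver minus mesoderm, and Pearson's r between the 2 contrasts was 0.44 (Spearman's rho 0.36), while between the days of A9 minus JN it was 0.90 (rho 0.90). The days share clones and protocols, and these correlations are descriptions.

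The clones were also set beside tissue libraries of their own protocol. Among ScriptSeq libraries, A9 minus liver was 0.38 for chromosome 1, 0.41 for chromosome 14 and −0.11 for chromosome 17. Among dUTP libraries, JN minus mesoderm was 0.04, 0.11 and 0.13 for the same autosomes, and JN minus ysE was 0.04, 0.13 and 0.10. The SD over the 19 autosomes was 0.17 for A9 minus liver and 0.079 for JN minus mesoderm. Within the dUTP libraries JN minus ysE ranged more widely, from −0.18 for chromosome 19 to 0.30 for chromosome 18. The departures of chromosomes 1 and 14 were thus larger in A9 minus liver than in JN minus mesoderm, although tissue and clone are mixed in each of these differences.

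**Figure D4:**
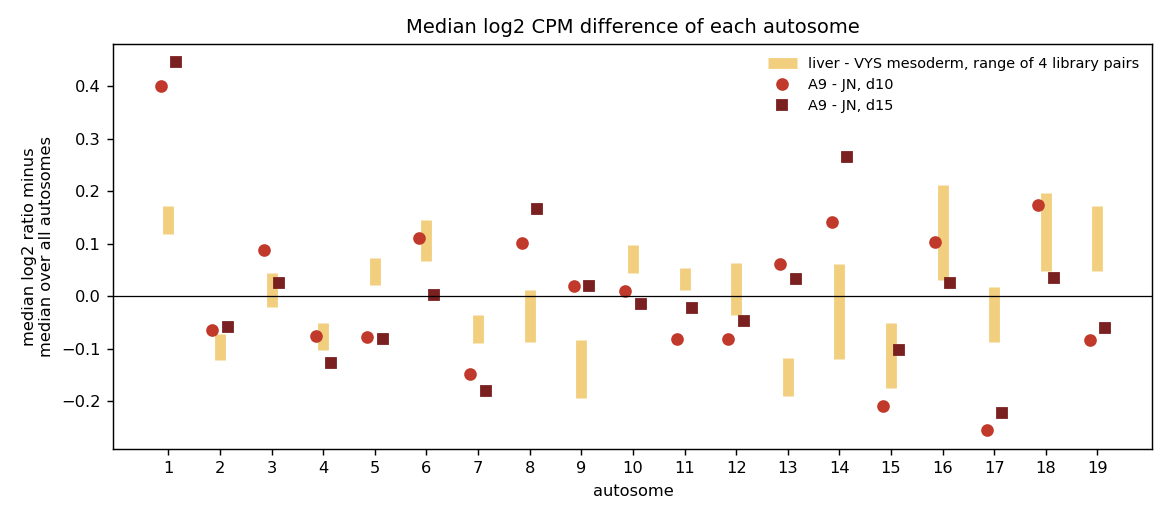
Median log2 difference of each autosome minus the autosomal median, for A9 minus JN at d10 (circles) and d15 (squares), with bars for the range of liver minus mesoderm over its 4 library pairs. Chromosome 1 (0.40 and 0.45) lies above all other autosomes on both days and chromosome 17 (−0.26 and −0.22) below them, while single pairs of liver minus mesoderm range from −0.19 to 0.21.

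The shift of chromosome 1 was spread over its length. When the genes of each autosome with a mean of at least 1 RPKM were divided by position into 8 bins of equal number, all 8 bins of chromosome 1 were above the autosomal median on both days, with single-day values from 0.18 to 0.71. All 8 bins of chromosome 14 were above it as well, from 0.14 to 0.50. On chromosome 17 7 of 8 bins were below it on both days, with single-day values from −0.51 to 0.08. No other autosome had all 8 bins on one side, and chromosomes 7 and 15 had 7 below. The lowest bin of all, at −3.15, was on chromosome 13, and was also the lowest in liver minus mesoderm at −1.93. In liver minus mesoderm, 5 of 8 bins of chromosome 1 and 3 of 8 of chromosome 14 were above the median.

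**Figure D5:**
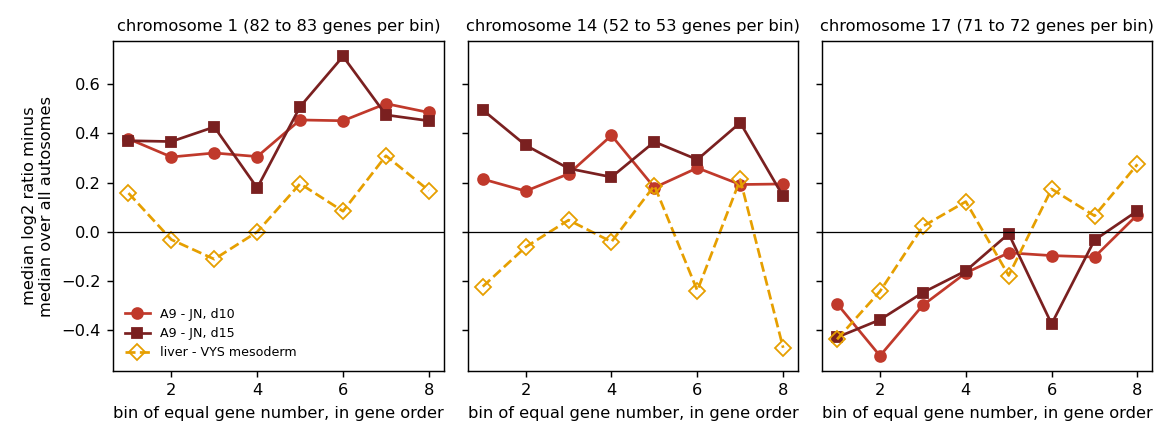
Median log2 difference A9 minus JN, less the autosomal median, in 8 bins of equal gene number along chromosomes 1, 14 and 17, for d10 and d15 and beside liver minus mesoderm. All 8 bins of chromosomes 1 and 14 are above 0 on both days and 7 of 8 on chromosome 17 are below.

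Calls of single genes followed the medians. On chromosome 1, 234 of 1075 genes were called higher (21.8%) and 62 lower (5.77%), against 10.4% and 13.9% of all autosomal genes. On chromosome 14, 97 of 633 were higher (15.3%) and 58 lower (9.16%). On chromosome 17, 71 of 889 were higher (7.99%) and 162 lower (18.2%). Of the transcripts of chromosome 1, 56.0% were above the autosomal median on both days and 20% below, compared with 37.3% and 37.3% of all autosomal transcripts. By level of expression, over genes with a mean of at least 1 RPKM, the shift of chromosome 1 was 0.46, 0.45 and 0.38 in the lowest, middle and highest of 3 equal groups of expression, that of chromosome 14 was 0.34, 0.35 and 0.21, and that of chromosome 17 was −0.21, −0.21 and −0.07.

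The genes highest per length on these autosomes did not all share the shift. On chromosome 1 Hnrnpu, an abundant nuclear RNA-binding protein, was higher at 1522, 1120, 915 and 549 CPM (log2 difference 0.85, adjusted p = 0.0479), and not called without A9 d10 or JN d15 (adjusted p = 0.194 and 0.193). The elongation factor gene Eef1b2, at 738, 803, 777 and 680 CPM, was not called (log2 difference 0.08, adjusted p = 0.765), and 3 genes were lower, the ribosomal protein genes Rpl7 (−2.12) and Rpl37a (−5.69) and the small RNA gene Scarna6 (−3.20). On chromosome 14 Nedd8, a ubiquitin-like modifier, was higher at 160, 200, 28.9 and 31.8 CPM (log2 difference 2.57, SE 0.17, adjusted p = 9.3e-06). The mitochondrial channel gene Vdac2 (log2 difference 0.38, adjusted p = 0.165) and the proteasome subunit gene Psmc6 (−0.40, adjusted p = 0.232) were not called, and the other two genes were lower, against the shift of the chromosome. They were Rpph1, the RNA of RNase P (−4.31), and a ribosomal protein gene (−3.74). On chromosome 17 the chaperone gene Hsp90ab1, at 3519, 3110, 3121 and 2432 CPM, was not called (log2 difference 0.26, adjusted p = 0.392), nor was the calmodulin gene Calm2 (−0.51, adjusted p = 0.149). The other 3 genes were lower, in the direction of the shift, and are ribosomal protein genes, Rpl36 (−9.31) and 2 more (−3.88 and −3.22). Of the lineage genes described above, Lamc1, Sox17 and Vil1 were higher and lie on chromosome 1, and Lefty1 was lower and lies there as well. Gata4 and Sox7 were higher and lie on chromosome 14.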

How the data were processed

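RNA-seq was deposited for 11 libraries of the series as 1 table of counts and 1 of RPKM values for RefSeq transcripts. Per the labels and the methods, the authors aligned reads with GSNAP to mm10, counted reads on RefSeq transcripts and scaled them to RPKM, that is by transcript length and library size. The treatment of multiply matching reads and of strand in counting is not given in the sources used here. Deposited counts on exon parts of Ensembl genes, summed per gene, served as an alternative.

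The 10 libraries of the 5 groups with 2 libraries each were fitted together, without a term for day, with edgeR 4.0.16 (R 4.3.3): filterByExpr, TMM, quasi-likelihood test, Benjamini-Hochberg adjustment over 24147 transcripts, 5% false discovery rate. Standard errors are the absolute log2 difference divided by the square root of the F statistic. The 10 libraries held 47818368 to 169981821 counts, the ScriptSeq ones fewer than the dUTP ones, so low transcripts are less precise in A9. Of 30455 transcripts, 28733 were autosomal. For each gene the transcript with the highest mean count was used. Lists give counts and medians without a set test. Their counts stand beside 10.4% of all autosomal genes called higher and 13.9% called lower. Autosome medians use log2 CPM (prior count 2). The script was tested on simulated counts.

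Genes were named by rule: Lama1 and Lefty1; per list up to 4 called members with the largest log2 difference and the member highest in RPKM; the 10 genes with the largest rise and the 10 with the largest fall, given no overlap of the clones and a mean of at least 1 RPKM in the higher clone; and the 5 genes highest in RPKM on the 3 most shifted autosomes. Some genes that the rule names are not reported here. Some further members of the lists are described for their role and were chosen after their values were seen. Clones, members and lists were chosen with earlier results of these data known, and the comparison of A9 with JN is not independent of them. DESeq2 1.42.0, other scalings, filters, library sets and leaving out each library were alternatives.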

Additional observations from a re-analysis of the deposited data

Results flagged for a closer look

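The atrial myosin gene Myl7 differed between the clones in opposite directions on the 2 days, with A9 minus JN at 2.10 on the log2 scale at d10 and −5.40 at d15. The smooth muscle actin gene Acta2 did so too, at 1.41 and −1.50. The medians of the cardiac muscle list (1.57 at d10 and −1.44 at d15) and of the endothelium list (2.05 and −0.505) also turned sign. With 1 library per clone and day, the difference between the days was not tested.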

How the results depend on the processing

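No called gene of those named reversed its direction under any setting run. Of the values for single genes under alternatives, 1852 were on the same side of the threshold as in the fit of 10 libraries, 251 were no longer called and 22 became called. In 5610 calls between the clones, 2926 were shared without A9 d15, 3123 without JN d10 and 5548 with DESeq2. Fitting the 4 EB libraries alone gave 977 transcripts higher and 1709 lower in A9, and 20 and 18 members of the lineage lists (43 and 30 with all 10). In that fit the parietal endoderm list had 4 higher members (13 with all 10), imprinted genes 3 (7) and visceral endoderm products 8 (8). Among the genes that lost their calls there were Lamc1, Sparc, Col4a2, Nid1, Gata6, Sox7, Sox17, Tek, Snai2, Cdkn1c and Mylk, while Nodal became called. A 1% false discovery rate gave 889 and 1637 transcripts, 16 and 16 list members, and 1977 and 1604 calls (3962 and 3369 at 5%) in the difference of both contrasts. As an alternative chosen after seeing the data, setting aside calls shared with liver minus mesoderm left 1115 higher and 1026 lower. The cause of these shifts was not tested, except that the first has fewer libraries and the second a stricter threshold by construction.

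Leaving out 1 library gave 1213 (without JN d10) to 2288 higher and 1876 (without A9 d15) to 3440 lower transcripts, 18 (without JN d10) to 53 higher and 23 to 31 lower list members, 2558 (without a mesoderm library) to 3880 higher and 2057 (without the other mesoderm library) to 3188 lower in the difference of both contrasts, and 4019 to 6041 higher and 5280 to 6961 lower in liver. Labels give the same day numbers to both clones, but same-day libraries share only a day label: the deviations of the 2 days correlated across transcripts at 0.128. With the day as a replicate block, 2997 transcripts were higher and 3551 lower, within 1.5 times of the values without the block.

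The shifts of chromosomes 1, 14 and 17 kept their sign under every setting run, and chromosome 1 ranked first in 18 of 18. Leaving out libraries or a day gave 0.36 to 0.49 for chromosome 1, 0.14 to 0.27 for chromosome 14 and −0.26 to −0.21 for chromosome 17. With transcripts not called alone they were 0.23, 0.10 and −0.15, and on log2(RPKM + 1), which shrinks low genes by construction, 0.14, 0.049 and −0.10. Without a filter on low counts chromosome 1 was 0.40 and chromosome 17 −0.19. Chromosome 17 was −0.18 with a mean of at least 1 RPKM and −0.20 by exon-part counts. After seeing the data, 3 further settings were added: the difference of both contrasts (0.30 for chromosome 1 and −0.20 for chromosome 17), expressed genes not called between liver and mesoderm (0.34 for chromosome 14) and longer genes only (−0.18 for chromosome 17). A9 libraries had about the depth of liver and less than JN, which limits low genes in A9.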
